A study of Mus musculus with 6 samples.

Results

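NRF2, the transcription factor encoded by Nfe2l2, and 9 of its antioxidant target genes (Nqo1, Gclc, Gclm, Hmox1, Txnrd1, Srxn1, Gsr, Slc7a11 and G6pdx) were followed in fibrotic mouse liver. The genes were taken by symbol from a table of 21983 genes. All 10 were in the table, and all 10 were among the 13153 genes that passed the low-count filter. RNA of whole liver was sequenced from 6 C57BL/6 mice, each given thioacetamide (TAA) at 400 mg/L in the drinking water for 16 weeks. TAA is a hepatotoxin that is oxidised in hepatocytes to reactive products and scars the liver. In 3 mice (Lrat-Cre; Prmt1f/f, the knockout mice) the genome carried a Cre recombinase driven by Lrat, which in liver marks hepatic stellate cells, together with floxed alleles of Prmt1, an arginine methyltransferase gene. The other 3 mice (Prmt1f/f, the control mice) carried the floxed alleles without Cre. The labels give an age of 10 weeks without saying to which time point it belongs, and no sex. There was no group without TAA, so the response of the NRF2 genes to TAA itself was not measured. The deletion is aimed at stellate cells, whereas the RNA came from all cells of the liver.

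In unstressed cells NRF2 protein is bound by KEAP1, which hands it to a CUL3 ubiquitin ligase for destruction. Oxidants and electrophiles modify cysteines of KEAP1, NRF2 then accumulates, pairs with small MAF proteins and binds antioxidant response elements. BACH1 competes for the same elements and represses them. The activity of NRF2 is therefore set mainly through its protein, and the messenger RNA of its targets is the usual readout in liver, where the pathway defends hepatocytes against reactive metabolites.

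The core of an antioxidant response element was searched as TGACNNNGC and as TGAGNNNGC on both strands, in windows from 250 bases before to 50 bases after each annotated start (RefSeq, GRCm38.p6). Windows were found for 7 members. Those of Nfe2l2, Gclm, Txnrd1, Srxn1 and G6pdx held TGACNNNGC, and those of Srxn1 and Slc7a11 held TGAGNNNGC. The window of Nqo1 held neither. Gclc, Hmox1 and Gsr had no entry. TGACNNNGC was in 5 of the 7 members with a window, and in 14% of 27025 genes (12.4% of 32851 windows). TGAGNNNGC was added to the search after the sequences were seen, and 19.8% of genes (17.6% of windows) held it. With it added, either form was in 6 of the 7 members and in 30.8% of genes, which is a description only. No match overlapped another within these windows. The windows of Srxn1 and G6pdx are shown because these genes had the smallest p-values of the 10, that of Slc7a11 because its level varied most between mice, and that of Txnrd1 as a target whose group means were nearly equal. Capitals mark the matches.
Srxn1, chr2:152105274-152105573 (plus strand): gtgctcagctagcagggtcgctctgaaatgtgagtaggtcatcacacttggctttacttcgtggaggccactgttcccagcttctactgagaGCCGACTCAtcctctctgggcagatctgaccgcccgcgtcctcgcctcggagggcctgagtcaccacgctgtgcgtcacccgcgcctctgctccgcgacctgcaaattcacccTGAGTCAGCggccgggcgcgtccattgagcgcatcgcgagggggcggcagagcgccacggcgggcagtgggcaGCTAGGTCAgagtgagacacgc
G6pdx, chrX:74428831-74429130 (minus strand): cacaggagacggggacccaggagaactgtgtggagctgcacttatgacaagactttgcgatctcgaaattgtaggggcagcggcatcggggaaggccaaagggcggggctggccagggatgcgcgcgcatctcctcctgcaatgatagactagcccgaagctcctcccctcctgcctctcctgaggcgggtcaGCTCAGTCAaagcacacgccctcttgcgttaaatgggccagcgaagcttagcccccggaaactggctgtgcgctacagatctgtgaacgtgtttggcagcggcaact
Slc7a11, chr3:50443564-50443863 (minus strand): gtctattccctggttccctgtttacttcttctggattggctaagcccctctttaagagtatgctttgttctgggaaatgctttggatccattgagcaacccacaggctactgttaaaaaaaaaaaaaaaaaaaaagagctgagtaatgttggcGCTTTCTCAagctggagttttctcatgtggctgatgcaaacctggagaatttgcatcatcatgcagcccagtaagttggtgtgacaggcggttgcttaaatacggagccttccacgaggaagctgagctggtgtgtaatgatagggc
Txnrd1, chr10:82858956-82859255 (plus strand): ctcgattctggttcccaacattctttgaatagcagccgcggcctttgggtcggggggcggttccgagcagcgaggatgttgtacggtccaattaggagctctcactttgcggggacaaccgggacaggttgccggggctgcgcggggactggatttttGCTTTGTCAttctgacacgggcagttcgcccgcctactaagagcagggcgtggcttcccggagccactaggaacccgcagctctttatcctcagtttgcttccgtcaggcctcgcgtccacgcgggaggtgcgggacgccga
The Srxn1 window held 3 matches, with first bases at -158, -45 and 29 counted from the RefSeq start of transcription. In G6pdx the match began at -57, in Slc7a11 at -97 and in Txnrd1 at -92. The GENCODE M21 gene of G6pdx begins at 74429194, so by that annotation the whole G6pdx window lies downstream of the gene's first base. The Txnrd1 window shown is the only one of its 3 annotated windows with a match. A match is a run of letters and does not show that NRF2 was bound there.

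None of the 10 genes passed an adjusted p of 0.05 between knockout and control livers (edgeR's quasi-likelihood test, Benjamini-Hochberg adjustment), and the adjusted p ranged from 0.384 (G6pdx) to 0.991 (Txnrd1). The same test called 0% of all 13153 genes (0 genes, with 1448 at an unadjusted p under 0.05). DESeq2 called 238 genes (1.81%) and limma-voom 0, none of them members. Only limma-voom with a weight for each library called members, namely Srxn1 and G6pdx (4.26% of all genes). In 9 of the 10 members the log2 fold change of knockout over control was negative, and the median was -0.41. Over all genes tested 52.7% were negative and the median was -0.02. Srxn1 and G6pdx had an unadjusted p under 0.05, both lower in knockout livers, and 5.95% of all genes were lower at that p. The 3 knockout mice did not lie wholly apart from the 3 control mice in any member, while 16.9% of all genes had separate groups (7.95% with knockout below, 8.94% with knockout above). In this whole-liver RNA, fewer cells of a type and less RNA per cell cannot be told apart.

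The order of the mice recurred across members. Knockout mouse 49 was above both other knockout mice in 9 of the 10 genes, the exception being Slc7a11, and 40% of all genes had it there. Knockout mouse 82 was below every control mouse in 9 members (25.4% of all genes), and knockout mouse 88 in 7 (25.6% of all genes). Nqo1, Srxn1, Gsr, Slc7a11 and G6pdx peaked in control mouse 83, in which 17.3% of all genes peaked and 30.2% exceeded all knockout mice. Nfe2l2, Gclc, Gclm and Txnrd1 peaked in knockout mouse 49, in which 18.2% of all genes peaked and 27.3% exceeded all control mice. No member was below all control mice in mouse 49 (26.3% of all genes were), and Hmox1 peaked in control mouse 90. Without mouse 49 knockout mice 82 and 88 were under each control mouse in 7 members (Nfe2l2, Gclc, Gclm, Hmox1, Srxn1, Gsr and G6pdx), against 17.3% of all genes. Leaving out control mouse 42 instead gave 2 such members (17.9% of all genes), and leaving out control mouse 90 gave 1 (12.5%). Leaving out mouse 83, 82 or 88 gave 0, against 10.9%, 10.6% and 11.5% of all genes. Prmt1, the targeted gene, was at 35.8 CPM (counts scaled to a common library size, with TMM factors) in mouse 49, at 24.7 in mouse 82 and at 25.8 in mouse 88, and at 38.9, 44.4 and 49.8 CPM in control mice 42, 83 and 90 (log2 fold change -0.62, SE 0.20, adjusted p 0.347 in edgeR). The labels do not give the floxed part of the gene, so these counts cannot show how far it was deleted. Whether the order of the mice in Prmt1 bears on their order in the NRF2 genes was not tested.

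**Figure D1:**
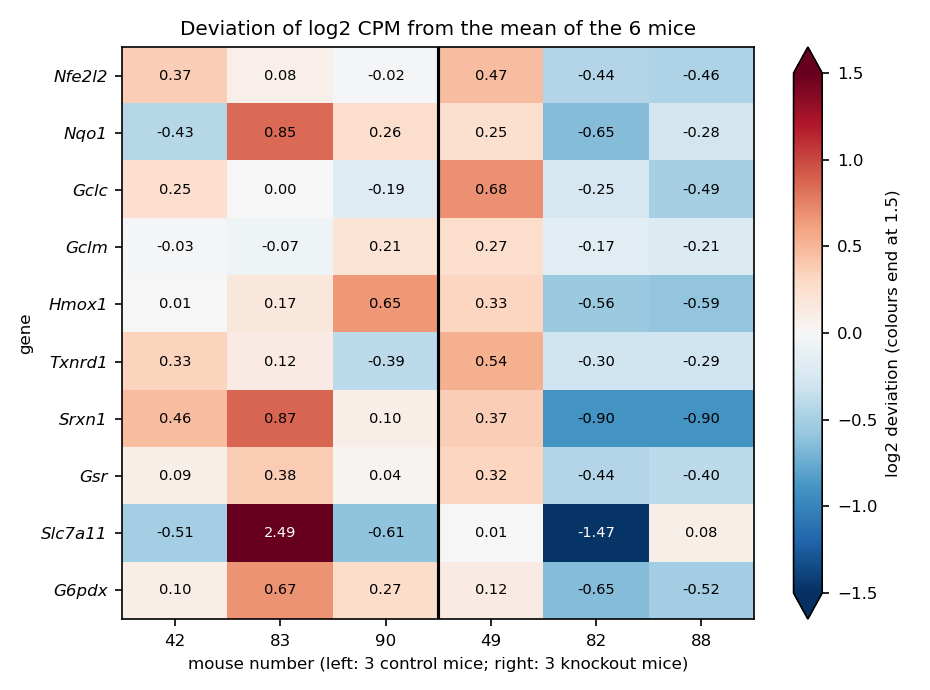
Colours and numbers give the deviation of each gene's log2 CPM (prior count 2) from its mean over the 6 mice, with the 3 control mice on the left of the line and the 3 knockout mice on the right. Knockout mouse 82 is below the mean in all 10 genes, knockout mouse 49 above it in all 10, and the darkest cell is Slc7a11 in control mouse 83 (2.49).

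Nfe2l2 itself (chromosome 2, 75675513 to 75704641, minus strand, GENCODE M21 on GRCm38) had 176, 144 and 135 CPM in control mice 42, 83 and 90. In knockout mice 49, 82 and 88 it had 189, 101 and 99.4 CPM. Mouse 49 was thus the highest of the 6 and the other knockout mice were the lowest, so that the groups overlapped. The means were 152 ± 21.4 CPM (control) and 129.7 ± 51.4 CPM (knockout) (SD, n = 3), with a log2 fold change of -0.23 (95% interval -0.86 to 0.40, adjusted p 0.766 in edgeR). It moved to -0.60 when mouse 49 was left out (adjusted p 0.306 in edgeR), to -0.10 when mouse 42 was, and to -0.09 when either of mice 82 and 88 was.

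Glutathione synthesis begins with cystine import by SLC7A11 and the joining of cysteine to glutamate by glutamate-cysteine ligase, made of the catalytic subunit GCLC and the modifier subunit GCLM. Slc7a11 (chromosome 3, 49892526 to 50443614, minus strand) had 11.8, 95.7 and 11.0 CPM in control mice 42, 83 and 90, and 17.0, 6.00 and 17.9 CPM in knockout mice 49, 82 and 88. Mouse 83 alone stood high, with 1883 counts against 80 to 264 in the other 5 mice. The highest mouse was 16.0 times the lowest, and 99.8% of the 8873 genes with a mean of at least 10 CPM had a smaller ratio. The log2 fold change was -1.54 with all mice (95% interval -3.39 to 0.30, adjusted p 0.506 in edgeR), and 0.25 without mouse 83. DESeq2 gave no p-value for this gene.

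Gclc (chromosome 9, 77754535 to 77794485, plus strand) had 913, 770.03 and 674 CPM in control mice 42, 83 and 90. In knockout mice 49, 82 and 88 it had 1234, 646 and 546 CPM, so mouse 49 was highest and the other knockout mice lowest, as in Nfe2l2. The means were 786 ± 120.2 and 809 ± 371 CPM (SD, n = 3), and the log2 fold change was 0.04 (95% interval -0.71 to 0.80). Its sign was negative with total counts as the only scaling, in limma-voom with or without library weights, with a term for mouse number, among mice numbered over 80, and without mouse 90 or 49 (-0.40 without mouse 49). Gclm (chromosome 3, 122245557 to 122270732, plus strand) was the steadiest member. It had 312, 303 and 368 CPM in control and 383, 282 and 275 CPM in knockout mice in the same order, a highest-to-lowest ratio of 1.39, against a median ratio of 1.68 over 8873 genes. Its log2 fold change was -0.06 (95% interval -0.56 to 0.43). Exons of Gclm overlap the annotated genes Gm17494 on the opposite strand (296 bases) and Gm6061 on the same strand (244 bases), neither of them in the count table, whose reads may not be separable from its own.

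In a ratio of both subunits within a mouse, which cancels the scaling of the library, Gclc per kilobase of exon was 4.88, 4.25 and 3.06 times Gclm in control mice 42, 83 and 90. The ratio was 5.38, 3.82 and 3.31 in knockout mice 49, 82 and 88. The catalytic subunit's transcript was the more abundant in every mouse, and the ratio was 4.06 ± 0.925 in control and 4.17 ± 1.08 in knockout livers (SD, n = 3). The groups overlapped, with a difference of 0.03 on the log2 scale (two-sided exact permutation p = 1, where 0.1 is the smallest that 20 assignments allow).

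Of the enzymes that recycle thiols with NADPH, GSR reduces oxidised glutathione, TXNRD1 reduces cytosolic thioredoxin, and sulfiredoxin, the product of Srxn1, repairs overoxidised peroxiredoxins. Srxn1 (chromosome 2, 152105516 to 152111376, plus strand) had 306, 406 and 238 CPM in control mice 42, 83 and 90, and 286, 119 and 119 CPM in knockout mice 49, 82 and 88. Knockout mice 82 and 88 lay at about the same level under every other mouse, and mouse 49 lay within the control range. The means were 316 ± 84.5 and 175 ± 96.5 CPM (SD, n = 3), 55.3% of control. This is a log2 fold change of -0.86 (SE 0.38, 95% interval -1.71 to -0.000192, unadjusted p 0.04996, adjusted p 0.453 in edgeR and 0.284 in DESeq2). It was -1.41 without mouse 49. Only limma-voom with a weight for each library put its adjusted p under 0.05 (0.0368), at -1.43.

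Gsr (chromosome 8, 33652523 to 33698163, plus strand) had 159, 195 and 154 CPM in control and 187, 111 and 114 CPM in knockout mice in the same order. The order of the mice resembled that of Srxn1, with a smaller spread and a log2 fold change of -0.31 (95% interval -0.87 to 0.25). Txnrd1 (chromosome 10, 82833951 to 82897712, plus strand) had 419, 362 and 255 CPM in control and 485, 271 and 272 CPM in knockout mice. Here control mouse 90 was the lowest of the 6, and the group means were 346 ± 83.6 and 343 ± 123 CPM (SD, n = 3). The log2 fold change was -0.01 (95% interval -0.70 to 0.67) and turned positive without mouse 42, 83, 82 or 88 (0.02 to 0.15).

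**Figure D2:**
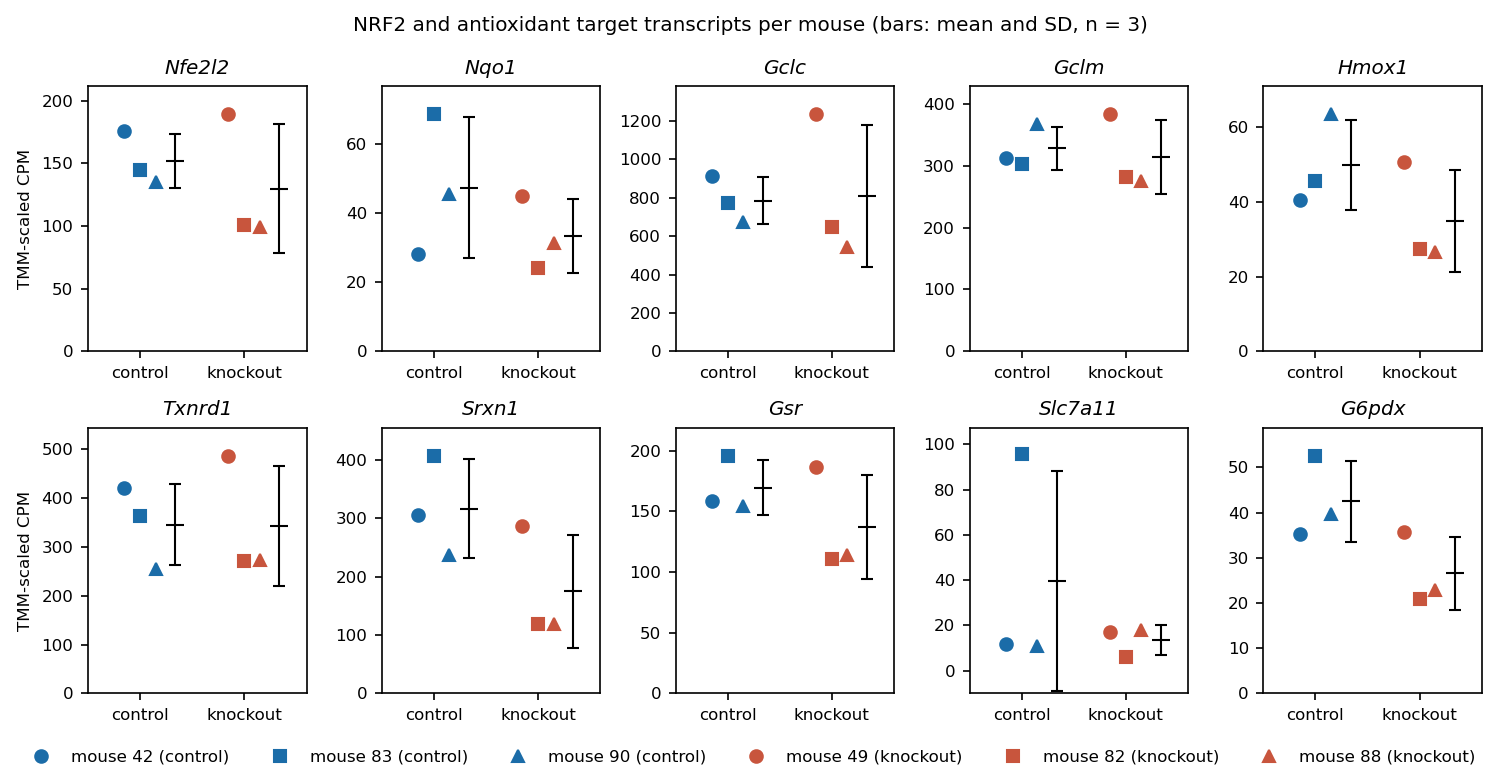
Each panel gives the TMM-scaled CPM of a gene in the 3 control mice (blue) and the 3 knockout mice (red), with the mouse marked by symbol and the mean and SD (n = 3) in black. Knockout mouse 49 (red circle) stands above the other knockout mice in every panel but Slc7a11, where control mouse 83 is at 95.7 CPM and no other mouse is above 17.9.

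G6pdx encodes glucose-6-phosphate dehydrogenase, which feeds the pentose phosphate pathway and supplies NADPH to both reductases. G6pdx (chromosome X, 74409483 to 74429194, minus strand) had 35.3, 52.4 and 39.8 CPM in control mice 42, 83 and 90, and 35.7, 20.9 and 22.9 CPM in knockout mice 49, 82 and 88. The groups touched only at mice 49 and 42, which differed by less than 1 CPM. The means were 42.5 ± 8.88 and 26.5 ± 8.04 CPM (SD, n = 3), 62.4% of control, with a log2 fold change of -0.68 (SE 0.25, 95% interval -1.25 to -0.11). The unadjusted p was 0.0244 and the adjusted p 0.384 in edgeR, 0.257 in DESeq2 and 0.0366 in limma-voom with library weights. Exons of G6pdx overlap those of Ikbkg on the opposite strand over 418 bases, and strand use in counting is not given in the sources used here. Ikbkg had a log2 fold change of 0.16 (SE 0.25).

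Nqo1, a quinone reductase, and Hmox1, the inducible heme oxygenase that releases iron and biliverdin, are targets that detoxify rather than recycle. Nqo1 (chromosome 8, 107388225 to 107403206, minus strand) had 28.0, 68.5 and 45.5 CPM in control mice 42, 83 and 90, and 44.9, 24.0 and 31.2 CPM in knockout mice 49, 82 and 88. Control mouse 42 was the second lowest of all, and mouse 83 the highest. The log2 fold change was -0.50 (95% interval -1.28 to 0.27, adjusted p 0.597 in edgeR), and -0.14 without mouse 83. Hmox1 (chromosome 8, 75093621 to 75100589, plus strand) had 40.7, 45.6 and 63.5 CPM in control and 50.7, 27.4 and 26.7 CPM in knockout mice in the same order. Both knockout mice numbered over 80 lay under every control mouse, and mouse 49 lay within the control range. The log2 fold change was -0.51 (95% interval -1.17 to 0.14, adjusted p 0.531 in edgeR), -0.88 without mouse 49 and -0.35 without control mouse 90.

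Mice 42 (control) and 49 (knockout) bear the only numbers under 80, and no label names this split a batch. With this split (under or over 80) as a term the log2 fold change was negative in all 10 members (median -0.42). The values were -0.99 for Srxn1, -0.71 for G6pdx and -0.29 for Nfe2l2, and no member passed in edgeR (adjusted p of 0.262, 0.276 and 0.493). Among the 4 mice numbered over 80 alone, all 10 were again negative. The median there was -0.82 (-0.03 over all genes), with -1.43 for Srxn1, -1.04 for Nqo1 and -0.48 for Nfe2l2, and again none passed. This subset also leaves out mouse 49, which was above both other knockout mice in 9 members, so it is no separate check.

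**Figure D3:**
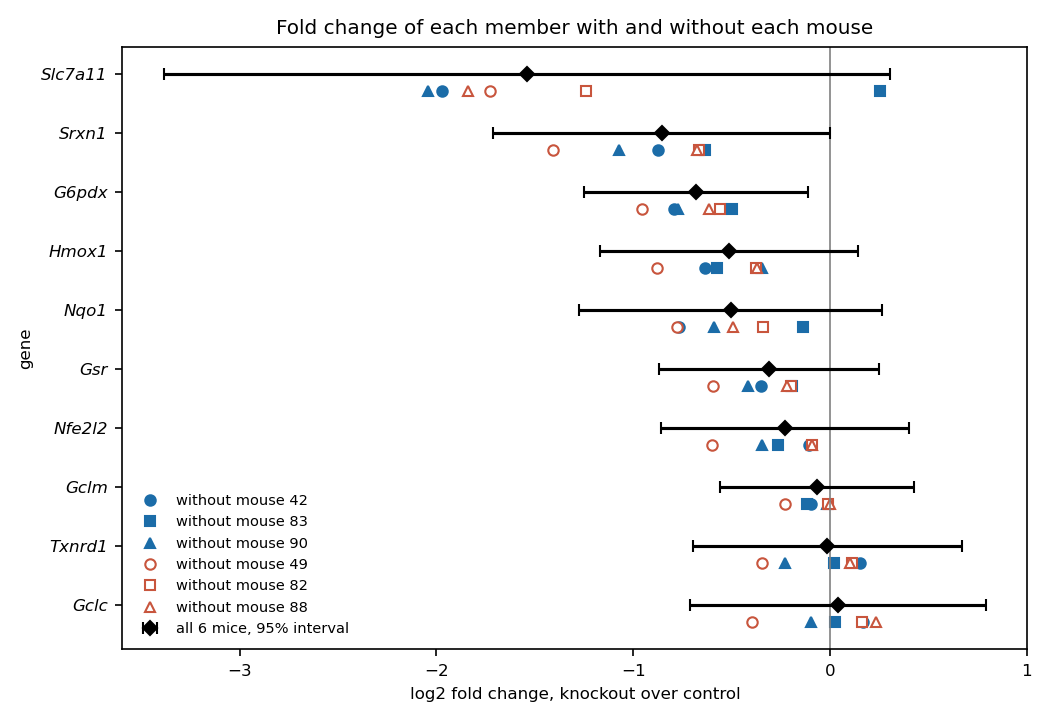
Black diamonds give the log2 fold change of knockout over control from all 6 mice with its 95% interval, and the points under each give the value with 1 mouse left out (filled blue for a control mouse, open red for a knockout mouse). The point without mouse 49 is the lowest in 9 of the 10 genes, all but Slc7a11, and Slc7a11 moves from -1.54 to 0.25 without mouse 83.

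Levels can be set against each other only per length. As CPM per kilobase of merged exons, the median over the 6 mice was 192 for Gclc, 92.9 for Srxn1, 56.9 for Gsr, 48.9 for Gclm, 44.8 for Txnrd1 and 36.8 for Nfe2l2. It was 24.6 for Hmox1, 24.5 for Nqo1, 11.5 for G6pdx and 1.03 for Slc7a11. The range of Gclc (145 to 328) did not meet that of Srxn1 (42.2 to 144), and every other pair of neighbours overlapped over the mice. Within a mouse Gsr exceeded Gclm in 3 of 6, Gclm exceeded Txnrd1 in 3 of 6 and Hmox1 exceeded Nqo1 in 4 of 6, so these neighbours have no firm order. Merged exons include every annotated isoform and understate a gene whose long isoforms are rare.

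Among the 8872 other genes with at least 10 CPM, those nearest to Nfe2l2 over the 6 mice were Dhx37, Rabl3 and Tmem43 (root mean square difference of centred log2 CPM 0.0768, 0.0787 and 0.0806). Nearest to Nqo1 were A2ml1, Tuft1 and Slc16a11 (0.187, 0.195 and 0.208), and nearest to Hmox1 were Nob1, Rpl12 and Gtf2f1 (0.0348, 0.0994 and 0.0998). No other member was among them.

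Regulators and partners of NRF2 were found on both sides of 0. Of 21 tested, 12 had a positive log2 fold change (median 0.10), 4 were higher at an unadjusted p under 0.05 (5.06% of all genes were) and none passed adjustment in edgeR or DESeq2. The median was -0.04 with total counts as the only scaling, -0.03 without mouse 90 and -0.02 without mouse 49. Keap1 was nearly flat, with 79.0, 60.8 and 74.4 CPM in control mice 42, 83 and 90 and 78.7, 76.4 and 74.6 CPM in knockout mice 49, 82 and 88 (log2 fold change 0.10, SE 0.17). The repressor Bach1 had 60.1, 47.4 and 41.9 CPM in control and 65.4, 66.0 and 70.5 CPM in knockout mice (0.43, SE 0.18, adjusted p 0.439 in edgeR). The small MAF gene Mafg was likewise above all control mice in all knockout mice (0.42, SE 0.18, adjusted p 0.453 in edgeR). The small MAF genes Mafk (-0.21, SE 0.17) and Maff (-0.14, SE 0.16) were negative and overlapped between genotypes. In the list 4 genes had all knockout mice above the control mice (8.94% of all genes had). Another 2 had them below (7.95% of all genes), namely Nfe2l3 (-0.72, SE 0.37) and Palb2 (-0.36, SE 0.37). The 2 smallest p-values belonged to Dcaf11, whose product is a receptor of a CUL4 ubiquitin ligase (0.58, SE 0.21, adjusted p 0.384 in edgeR), and Rxra, the retinoid X receptor alpha gene (0.69, SE 0.28, adjusted p 0.416 in edgeR).

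Detoxication and export genes known to respond to NRF2 were split, with 14 negative and 18 positive of 32 tested (median 0.04). Of these, 3 were lower at an unadjusted p under 0.05 (5.95% of all genes) and 2 higher (5.06%), and none passed in edgeR. Ptgr1, a prostaglandin reductase, had 13.4, 24.5 and 21.3 CPM in control mice 42, 83 and 90 and 8.24, 7.64 and 9.94 CPM in knockout mice 49, 82 and 88. The genotypes did not overlap (log2 fold change -1.20, SE 0.26, adjusted p 0.256 in edgeR), and DESeq2 called it lower (adjusted p 0.0106). Akr1b8, an aldo-keto reductase, also had separate groups (-0.97, SE 0.29, adjusted p 0.323 in edgeR), as had Osgin1, an oxidative stress-induced growth inhibitor (-0.63, SE 0.24). In contrast Gsta3, a glutathione S-transferase, had 1106, 768 and 1095 CPM in control and 1501, 1620.2 and 1500.2 CPM in knockout mice (0.64, SE 0.24). Abcc3, an efflux transporter, was at 0.56 (SE 0.24). Gsta3, Abcc3 and Akr7a5, an aldo-keto reductase (0.36, SE 0.18), had all knockout mice above the control mice. The list thus held 3 genes with knockout below (7.95% of all genes) and 3 with knockout above (8.94%). Gsta1 had the lowest log2 fold change of the list (-1.22, SE 0.54). It had 119, 169 and 344 CPM in control and 170, 48.6 and 53.3 CPM in knockout mice. In Gsta1, Gstm1, Gstm2, Gstm3, Gstm4, Ugdh and Ftl1 knockout mice 82 and 88 were below every control mouse, and mouse 49 was above both. Ptgr1, Akr1b8 and Osgin1 also had mice 82 and 88 there (17.3% of all genes), and the other tested genes of the list did not. Cbr3, a carbonyl reductase, resembled Nqo1 in the order of the mice, with 34.9, 130 and 66.0 CPM in control and 72.9, 28.9 and 38.6 CPM in knockout mice.

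Around glutathione, 13 of 26 genes were negative and 13 positive (median -0.01), and none passed in edgeR. Cth, whose enzyme makes cysteine from cystathionine, had 324, 409 and 505 CPM in control mice 42, 83 and 90 and 508, 1082 and 1339 CPM in knockout mice 49, 82 and 88. Its log2 fold change was 1.24 (SE 0.37, adjusted p 0.323 in edgeR), and DESeq2 called it higher (adjusted p 0.0341). Cbs, which makes cystathionine, was above all control mice in all knockout mice as well (0.78, SE 0.29, adjusted p 0.389 in edgeR). Knockout mice 82 and 88, which had the lowest mean log2 deviation of the 10 members (-0.58 and -0.41), were the highest in both. Not every member was low there: Txnrd1 in both mice, and Nqo1 and Slc7a11 in mouse 88, were not below all control mice. The mean log2 deviation of the 10 hepatocyte markers was also highest in mice 82 and 88 (0.25 and 0.26). Their summed CPM, however, was highest in control mouse 90 (110690, against 105740 and 101730 in mice 82 and 88). A link between these orders was not tested. Oplah, which opens 5-oxoproline to glutamate, was at 190.3 to 196 CPM in knockout and at 72.6 to 140 CPM in control mice (0.87, SE 0.25, adjusted p 0.323 in edgeR). Ggct, which releases 5-oxoproline, was lower in all knockout mice (-0.75, SE 0.24, adjusted p 0.347 in edgeR). In the thioredoxin and peroxiredoxin list 12 of 19 were negative (median -0.03). Txn1, thioredoxin itself, was second to Srxn1 by p (-0.60, SE 0.29, adjusted p 0.473 in edgeR).

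NADPH-producing enzymes were found on both sides. Of 14 tested, 4 were lower at an unadjusted p under 0.05 (5.95% of all genes) and 2 higher (5.06%), and none passed in edgeR (median -0.10). The 4 lower genes were G6pdx, Pgd, Tkt and Rpia, whose enzymes act in the pentose phosphate pathway. Other genes of that pathway in the list did not pass at that p, with Taldo1 at -0.42, Pgls at -0.14 and Rpe at 0.21, where all knockout mice were above the control mice. H6pd, which encodes the related dehydrogenase of the endoplasmic reticulum, was at 0.47. The lowest log2 fold change of the list was outside that pathway, in the malic enzyme gene Me1 (-0.78, SE 0.36, unadjusted p 0.0572 in edgeR). Pgd had 209.6, 267 and 193 CPM in control mice 42, 83 and 90 and 208, 94.0 and 99.1 CPM in knockout mice 49, 82 and 88, the pattern of Srxn1 and G6pdx. Its log2 fold change was -0.74 (SE 0.32), and those of Tkt and Rpia were -0.71 (SE 0.31) and -0.72 (SE 0.26). The 2 higher genes were Aldh1l1 and Mthfd1, which encode enzymes of folate metabolism. Aldh1l1, a formyltetrahydrofolate dehydrogenase, had 936, 711 and 974 CPM in control and 1154, 1712 and 1727 CPM in knockout mice (0.81, SE 0.27, adjusted p 0.347 in edgeR), and DESeq2 called it higher (adjusted p 0.0481). Mthfd1 was at 0.54. G6pdx, Gclc, Gclm, Gsr, Slc7a11, Txnrd1 and Srxn1 are counted in these lists as well as among the members.

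**Figure D4:**
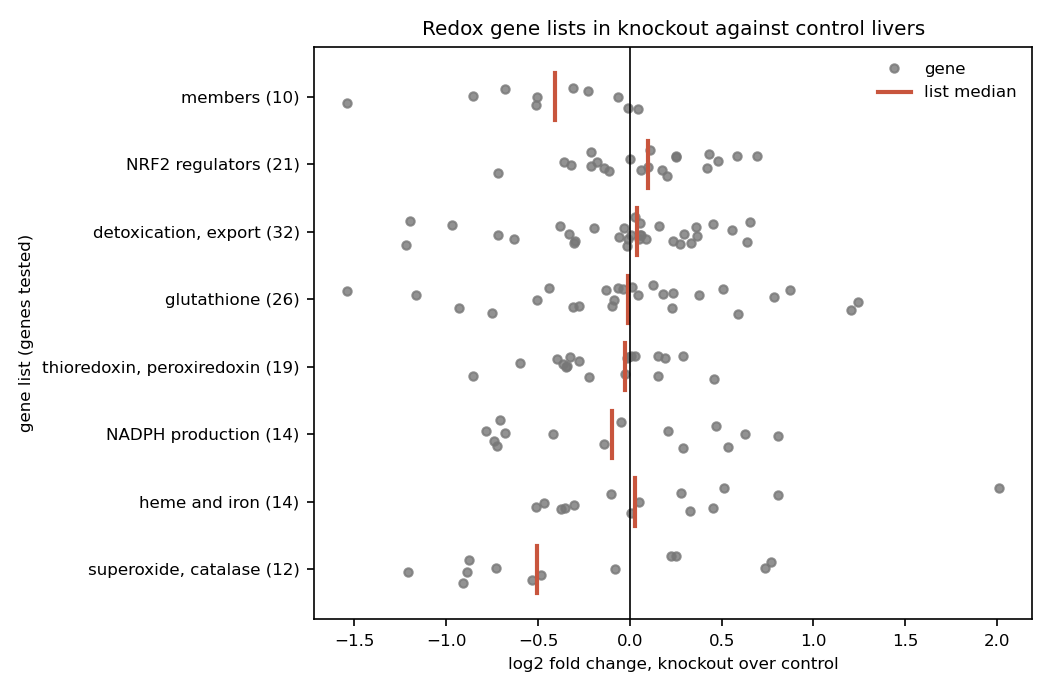
Each grey point is the log2 fold change of a tested gene (knockout over control) and each red line the median of its list, with the number of tested genes in brackets. The members have a median of -0.41, and the lists of regulators, detoxication, glutathione, thioredoxin, NADPH and heme genes have medians between -0.10 and 0.10. The superoxide and catalase list has a median of -0.51.

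Markers of liver cell types also differed between mice. The signs given here are to be set beside the 52.7% of all genes tested with a negative log2 fold change. The summed CPM of 10 hepatocyte markers was 74458 to 110690 in control and 89870 to 105740 in knockout livers (7 of 10 positive). It was lowest in mouse 83 and highest in mouse 90. Alb alone gave 55389 to 81551 CPM of it in control and 62655 to 73605 CPM in knockout livers. The sum of 8 bile duct markers was 532, 1321 and 1220 CPM in control mice 42, 83 and 90 and 286, 581 and 745 CPM in knockout mice 49, 82 and 88, with all 8 log2 fold changes negative. Spp1 made up 82.1% to 89.3% of this sum, and the other 7 markers gave 95.1, 207 and 129.9 CPM in control and 49.4, 92.2 and 123 CPM in knockout mice, so that the groups overlapped. For 10 recruited macrophage markers, of which Trem2 had no count in any mouse, it was 592 to 1434 against 372 to 855 CPM (8 of 9 tested negative). Spp1 is also in this list, at 63.6% to 78% of its sum, so both sums largely follow 1 gene. The other 9 macrophage markers gave 155 to 320 against 136 to 233 CPM. Mouse 83, highest in Slc7a11 and Nqo1, was the highest in both sums with and without Spp1. The 10 stellate cell markers summed to 903 to 1004 against 332 to 691 CPM (9 of 10 negative), the lowest being mouse 49. In 6 of them all knockout mice were below the control mice (7.95% of all genes), and 6 were lower at an unadjusted p under 0.05 in edgeR (5.95%). DESeq2 called 5 of them lower (1.81% of all genes called in either direction), and edgeR called none. The 7 neutrophil markers summed to 18.4 to 83.1 against 11.8 to 17.6 CPM (5 of 5 tested negative). For 8 Kupffer cell markers, cells that express Hmox1, the sum was 211 to 669 against 292 to 488 CPM (7 of 8 positive). The 7 red cell markers gave 33.1 to 80.1 against 37.5 to 193 CPM (4 of 4 tested positive), the highest being mouse 49. The 7 endothelial markers gave 328 to 411 against 266 to 407 CPM (4 of 7 positive), and the 9 lymphocyte markers 7.87 to 28.4 against 8.17 to 9.37 CPM (8 of 8 tested negative). The part of these cells in the levels of the NRF2 genes was not tested. Like Trem2, Txnrd2 of the thioredoxin list and Gstp2 of the detoxication list had no count in any mouse. Gstp1 had 1 count, in mouse 88, and none of these genes was tested. Whether such zeros reflect absent transcripts or the counting was not tested.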

How the data were processed

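The authors deposited raw counts per gene symbol for 6 mice in a single table. Trimmomatic, FastQC, STAR, HTSeq and the build mm10 are named without versions, per the submitters' processing notes. The annotation and the strandedness used by HTSeq are not given in these sources. Per the labels' protocols, TRIzol RNA went into NEBNext Ultra libraries. Total counts ranged from 13303884 to 16462278 per mouse, and TMM factors from 0.909 to 1.20. Genotypes came from sample titles and columns were matched by mouse number. The labels describe separate mice.

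Counts were filtered with filterByExpr (13153 genes kept), scaled by TMM and fitted over the 6 mice by genotype alone in edgeR 4.0.16 under R 4.3.3 (quasi-likelihood test), with Benjamini-Hochberg adjustment over all genes tested at 0.05. Standard errors were derived from F and the fold change, and 95% intervals from the t distribution with 8.75 residual degrees of freedom. Positions, exon lengths and overlaps come from GENCODE M21 on GRCm38, the assembly of mm10, and promoter windows from RefSeq (GRCm38.p6).

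The members and lists were chosen with earlier results of these data known, so their counts and medians are descriptions. The rule for named genes takes the 10 members and Prmt1, the 2 genes with the smallest p of each of 7 further lists, any gene past adjustment, and the 3 genes most like Nfe2l2, Nqo1 and Hmox1. Keap1, Bach1, Mafg, Mafk, Maff, Nfe2l3, Palb2, Osgin1, Gsta3, Abcc3, Akr7a5, Gstp1, Gstp2, Cbr3 and Txnrd2 were named after their values were seen. The same holds for Cbs, Ggct, Pgd, Tkt, Taldo1, Pgls, Rpe, H6pd, Me1, Mthfd1, Spp1 and Ikbkg. It also holds for Gsta1, Gstm1, Gstm2, Gstm3, Gstm4, Ugdh, Ftl1 and Alb, and for Cyba, Ncf1, Cat, Sod1 and Blvrb in the closing section. The motif TGAGNNNGC was added after the sequences were seen. The symbol Wdr23 in the list of regulators is an older name of Dcaf11 (RefSeq synonyms), which was tested and counted once. Alternatives were RLE factors, total counts, no filter, 1 CPM in 3 samples, DESeq2 1.42.0, limma-voom (limma 3.58.1) without and with library weights, a robust and a newer edgeR fit, an adjusted p of 0.10, removal of the 20 most abundant genes, a mouse number term (under or over 80), the mice numbered over 80 and each mouse left out in turn.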

Additional observations from a re-analysis of the deposited data

How the results depend on the processing

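The number of genes past an adjusted p of 0.05 was 0 in the edgeR fit as reported, and 4 with no low-count filter, 238 with DESeq2, 560 in limma-voom with library weights, 3 at an adjusted p of 0.10 and 6 with the mouse number term. With a mouse left out it ranged from 0 to 13, the 13 being without knockout mouse 49. The number of members called was 0 except in limma-voom with library weights, where it was 2 (Srxn1 and G6pdx). The median log2 fold change of the members stayed negative under all 18 alternatives that gave one. It was -0.82 among mice numbered over 80, from -0.69 (without mouse 49) to -0.17 (without mouse 83) with a mouse left out, and -0.54 with total counts as the only scaling, which also moved the median of all genes to -0.17. Gclc changed sign, to -0.10 with total counts, -0.044 in limma-voom, -0.30 in limma-voom with library weights, -0.040 with the mouse number term and -0.27 among mice numbered over 80. With a mouse left out Gclc ranged from -0.40 to 0.235, Txnrd1 from -0.35 to 0.15 and Slc7a11 from -2.04 to 0.25. The other 7 members kept a negative sign under every alternative run, the nearest to 0 being Gclm without mouse 88 (-0.00077). The cause of these shifts was not tested. DESeq2 gave Slc7a11 a log2 fold change of -1.55 but no p-value. No paired analysis was possible because the labels give no pairing of the mice. With 3 mice a group the 95% interval of every member except Srxn1 and G6pdx included 0. The lowest count of a member in any mouse was 80.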

Other observations

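Genes that make or remove superoxide and peroxide lay on both sides of 0. Of 12 tested, 8 had a negative log2 fold change of knockout over control (median -0.51), and none passed adjustment in edgeR. Xdh, encoding xanthine oxidoreductase, had 177, 147 and 128 CPM in control mice 42, 83 and 90 and 245, 264 and 245 CPM in knockout mice 49, 82 and 88. Its log2 fold change was 0.74 (SE 0.20, adjusted p 0.311 in edgeR), and DESeq2 called it higher (adjusted p 0.0166). Nox4, an NADPH oxidase gene, had 12.7, 8.995 and 14.8 against 21.1, 25.2 and 15.9 CPM (0.77, SE 0.26, adjusted p 0.352 in edgeR). Subunit genes of the phagocyte oxidase lay the other way. Cyba had 18.9, 44.3 and 75.2 CPM in control and 13.4, 23.8 and 22.8 CPM in knockout mice (-1.21, SE 0.45), and Ncf1 was at -0.88 (SE 0.39), while the sum of 7 neutrophil markers was 18.4 to 83.1 against 11.8 to 17.6 CPM. The part of phagocytes in these values was not tested. Catalase (Cat, 0.23, SE 0.25) and the cytosolic superoxide dismutase gene Sod1 (-0.08, SE 0.32) overlapped between genotypes.

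In the list of heme breakdown and iron storage genes, 8 of 14 had a positive log2 fold change (median 0.03). Its smallest p-values belonged to Cd163, the receptor for hemoglobin bound to haptoglobin, which is also a Kupffer cell marker (2.01, SE 0.68, adjusted p 0.361 in edgeR), and Lrp1, a receptor that takes up heme bound to hemopexin (0.81, SE 0.35, adjusted p 0.448 in edgeR). Cd163 had 10.9, 2.59 and 2.45 CPM in control mice 42, 83 and 90 and 17.4, 38.4 and 8.50 CPM in knockout mice 49, 82 and 88, so the groups overlapped. Blvrb, a biliverdin reductase gene, had a log2 fold change of -0.47 (SE 0.33).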
